A study of Arabidopsis thaliana with 6 samples.

Results

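Leaves of wild-type *Arabidopsis thaliana* sprayed with INA were compared with leaves sprayed with water, across every gene measured in both. INA is a synthetic compound that acts in place of salicylic acid (SA), the plant hormone of defense against pathogens that feed on living tissue. The comparison takes 2 of the 6 libraries of the series. Col+INA is Columbia-0 (Col) treated with 300 µM INA for 12 h, and Col is the same wild type treated with water for the same 12 h; all plants were 4 weeks old, were grown in short days at 22 °C and carried no mutation or transgene. Each library was made from leaf RNA of 3 independent experiments that were combined before sequencing, so there is 1 library a side and no measure of the spread between plants or experiments. Every interval given here covers counting error only, and the test compares the libraries, not the treatments. The mutant libraries of the series were not used here.

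Over all gene models there were 7146973 reads in Col+INA and 6920927 in Col, and 21146 genes had reads in at least 1 of them. Of the 10 genes often used as references for leaf RNA, 0 were called, and their median log2 ratio of Col+INA over Col was 0.02 among those with at least 10 reads in either library. Over all genes the median was −0.05, which is also the value of any gene with equal reads in both, and 0.18 over genes with at least 20 reads. The material had the marks of leaf. All 10 markers of leaf mesophyll were measured, at 2.37% of the reads in Col+INA and 6.0% in Col. Of 7 root markers only *PYK10* was measured, with 4 reads in Col+INA and 16 in Col, of 4 flower markers only *AG*, with 1 read in each, and of 3 seed storage genes none. A count of 0 reads allows up to 0.42 CPM (counts scaled to equal library sums) in Col+INA and 0.433 CPM in Col. Genes with several transcripts had few reads: the median over both libraries was 158 reads for genes with 1 RefSeq transcript, 53 for genes with 2 and 20 for genes with 3 or more, and *UBQ10* had only 3 reads in each library. How reads shared between transcripts or gene copies were counted is not given in the sources used here, so a low count of such a gene need not be a low level of its RNA.

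SA works through a short chain that is well known in leaves. The hormone is made in the plastid from chorismate, is exported and finished in the cytosol, and is bound by proteins of the NPR family, which act together with TGA transcription factors on genes such as *PR1*. Many genes of this chain are themselves switched by SA, both those that build the hormone up and those that break it down. Leaves that mount this defense are also known to make more of the machinery that folds and exports proteins, and many products of *PR* genes are secreted.

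The question asked was which genes differed between INA-treated and water-treated wild-type leaves. In Col+INA 2940 genes were higher and 1791 were lower. A gene was called when its log2 ratio of reads, scaled by the library sums, reached 1 in either direction at a false discovery rate (FDR, Benjamini-Hochberg over all gene models) no larger than 0.01 in a two-sided exact binomial test. These are 13.9% and 8.47% of the genes measured, and every count of a gene group below is to be read against these shares. They are printed beside only some of the groups, and a group near them did not stand out from all genes. The larger changes were upward: 647 genes were at least 8-fold higher in Col+INA and 120 were at least 8-fold lower. The genes called higher took 27.2% of the reads of Col+INA and 6.21% of those of Col, and the genes called lower took 7.87% of Col+INA and 23.1% of Col. Among the genes called higher 189 had no read in Col, and among those called lower 35 had none in Col+INA. The counts depend on how much variation between plants is assumed: with a biological coefficient of variation of 0.2 the edgeR exact test called 1610 genes higher and 715 lower, and with 0.4 it called 403 and 29.

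**Figure D1:**
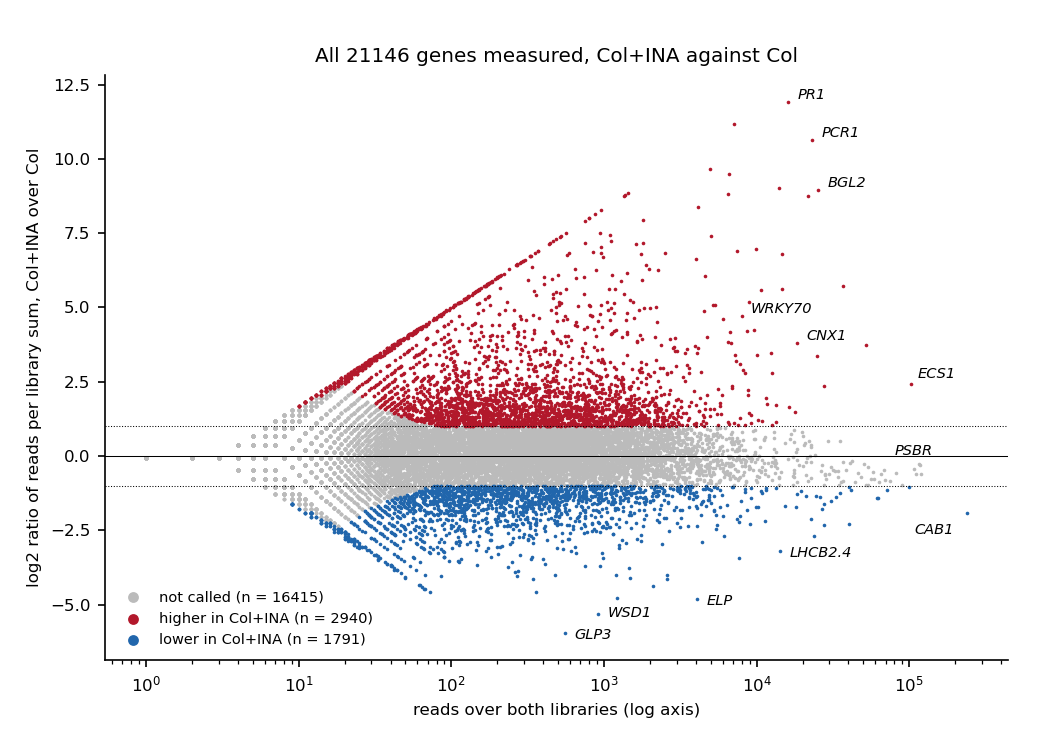
Log2 ratio of Col+INA over Col (vertical axis) against the reads of a gene over both libraries (horizontal log axis), 1 point per gene. Ratios use 3 reads wherever a library had fewer. The 2940 genes called higher (red) reach a log2 ratio of 11.93 at *PR1*, while the 1791 called lower (blue) reach −5.97 at *GLP3*, and *CAB1*, *LHCB2.4* and *ELP* are abundant genes among them.

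The ratio moved with gene length. Among genes with at least 20 reads, split into 4 equal groups by length, 26.8% of the shortest group were higher and 7.3% lower, with a median log2 ratio of 0.48. Of the longest group, 11.7% were higher and 20.5% lower, with a median of −0.21. Split into deciles of length, the median log2 ratio was 0.59 in the shortest decile, with a median length of 533 bases, was lower in each longer decile, and was −0.46 in the longest, with a median of 3497 bases. The part of length in the calls of a single gene group was not tested, but each group was also counted after taking off the median log2 ratio of genes of the same length decile, which left 2424 genes higher and 1930 lower. That count is given beside some of the groups where it differs most.

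**Figure D2:**
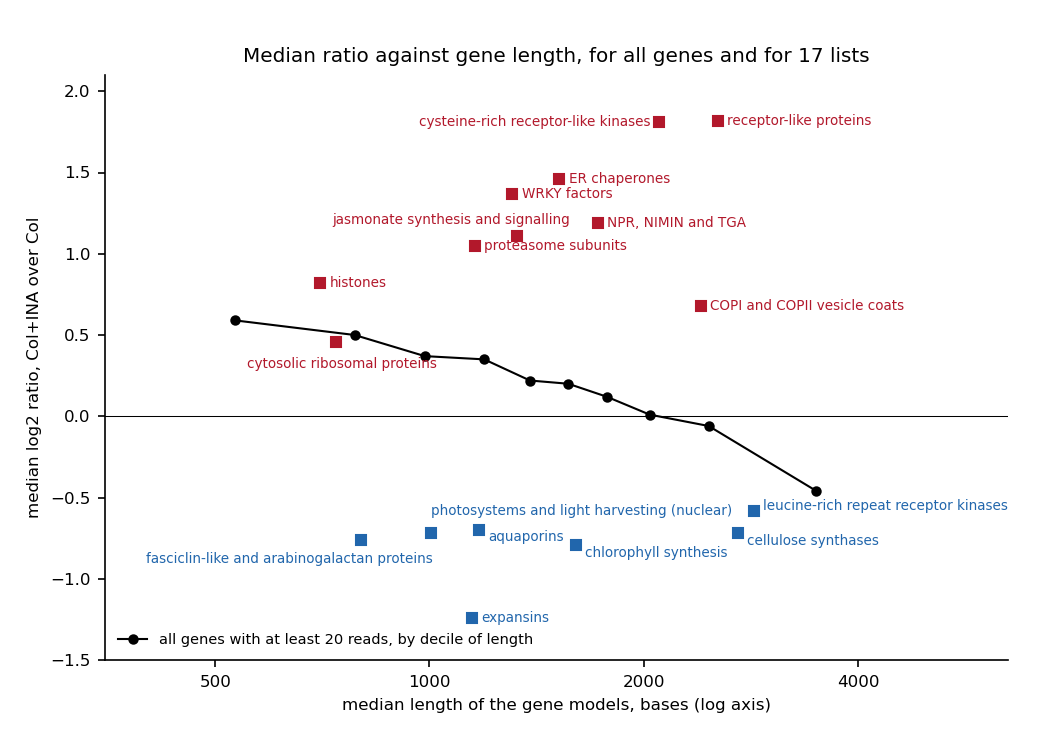
Median log2 ratio of Col+INA over Col (vertical axis) against the median length of gene models (horizontal log axis). The black line joins the deciles of all genes with at least 20 reads and runs from 0.59 to −0.46, and the squares are 17 gene lists with all measured members (red above 0, blue below 0); receptor-like proteins stand at 1.82 at a length where all genes are near 0, and photosystem genes at −0.72 at a length where all genes are above 0.

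*PR1* had the largest ratio of all genes called with at least 100 reads. It encodes a small secreted protein and is the usual marker of the SA response. *PR1* had 16158 reads in Col+INA, against 4 reads in Col, a ratio of 3912 (95% interval 1527 to 14359). Next came *AT4G10500*, an oxygenase known to hydroxylate SA, with 7078 reads in Col+INA and 2 in Col. *PCR1*, a small membrane protein named for cadmium resistance, had 23119 and 14 reads. Other secreted proteins of the *PR* group were also far higher. *CHI* (*AT2G43570*), a chitinase, had 4977 reads in Col+INA and 6 in Col. *BGL2*, the glucanase also called *PR2*, had 25352 and 49, and *PR5*, a thaumatin-like protein, had 14583 and 127.

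The other genes of the highest 15 were of many kinds. *TAT3*, a tyrosine aminotransferase, had 6629 reads in Col+INA and 9 in Col, and the legume lectin *AT5G03350* had 14075 and 26. *LURP1* and *PCC1*, both known from responses to pathogens, had 6468 and 21648 reads in Col+INA, against 14 and 49 in Col. The cation exchanger *CAX3*, which moves calcium into the vacuole, had 4115 reads in Col+INA and 12 in Col. *ARD* (*AT2G26400*), an acireductone dioxygenase of methionine recycling, had 1346 reads in Col+INA and 0 in Col, which is at least 434-fold higher when 3 reads are allowed for Col. The AAA-type protein *AT3G28510* had 958 reads and 0, at least 309-fold higher, and the lipid-transfer protein *AT3G22600* had 1375 reads and 2. The counting intervals of the ratio lay far above 1 in all of them, which follows from taking the largest ratios among called genes.

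Not every gene with a *PR* or chitinase name took part. Of 48 measured *PR* proteins, chitinases and glucanases 11 were higher and 5 lower, and with at least 10 reads in either library their median log2 ratio was 0.34, against 0.18 for all genes. Together they took 0.983% of the reads in Col+INA and 0.153% in Col, and *PR1*, *BGL2*, *PR5* and *CHI* held most of the reads in Col+INA. Among the 5 that were lower was *POM1*, a chitinase-like protein of cellulose deposition, with 4362 reads in Col+INA and 8982 in Col. Another was *AT4G25780*, a protein of the same CAP family as *PR1*, with 22 reads in Col+INA and 177 in Col.

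Of 16 genes of SA synthesis and the EDS1 pathway, a list that also holds regulators and helper receptors, 13 were higher and 0 lower, with a median log2 ratio of 3.07. *EDS16*, the isochorismate synthase *ICS1* that starts the pathway, had 153 reads in Col+INA and 9 in Col, while its paralog *ICS2* had 0 and 1. *EDS5*, which carries isochorismate out of the plastid, had 926 reads and 44, and *PBS3*, which joins it to glutamate, had 1074 and 59. *EPS1*, which can release SA from that product, was not called, with 158 reads in Col+INA and 157 in Col. The transcription factors *SARD1* and *CBP60G*, which act on *ICS1*, had 1118 and 51 reads in Col+INA, against 38 and 1 in Col. Their relative *AT5G62570* was not called, at 24 reads and 27.

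The lipase-like proteins that signal upstream of SA followed the same direction. *PAD4* had 1548 reads in Col+INA and 105 in Col. *EDS1* had only 42 and 10 reads, and its close copy *AT3G48080* had 456 and 10, and the values of these near-identical genes are uncertain, since the handling of shared reads is not given. *SAG101*, a further partner, had 87 reads in Col+INA and 15 in Col. The helper receptors *ADR1*, *ADR1-L1* and *ADR1-L2* had 497, 29 and 1225 reads in Col+INA, against 98, 3 and 238 in Col. *NDR1*, which serves receptors of the other main class, had 305 and 39.

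Genes that use up SA or make the second signal, pipecolic acid, had the largest median of all 69 lists. Of 10 genes 9 were higher and 0 lower, with a median log2 ratio of 4.38, and together they took 0.338% of the reads in Col+INA and 0.0101% in Col. *DMR6*, a hydroxylase of SA like *AT4G10500*, had 10446 reads in Col+INA and 210 in Col. *UGT76B1*, a glucosyltransferase of SA and related molecules, had 1443 reads and 0, at least 466-fold higher. *GT* (*UGT74F2*), which also glucosylates SA, had 747 and 80 reads, while its neighbor *UGT74F1* had 0 and 2. *ALD1* and *FMO1*, the first and last enzymes of N-hydroxypipecolic acid synthesis, had 796 and 293 reads in Col+INA and 0 reads each in Col. The reductase of the middle step, *AT5G52810*, had 3156 reads in Col+INA and 368 in Col. *BSMT1*, which methylates SA, was near the limit of counting, at 12 reads in Col+INA and 0 in Col.

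**Figure D3:**
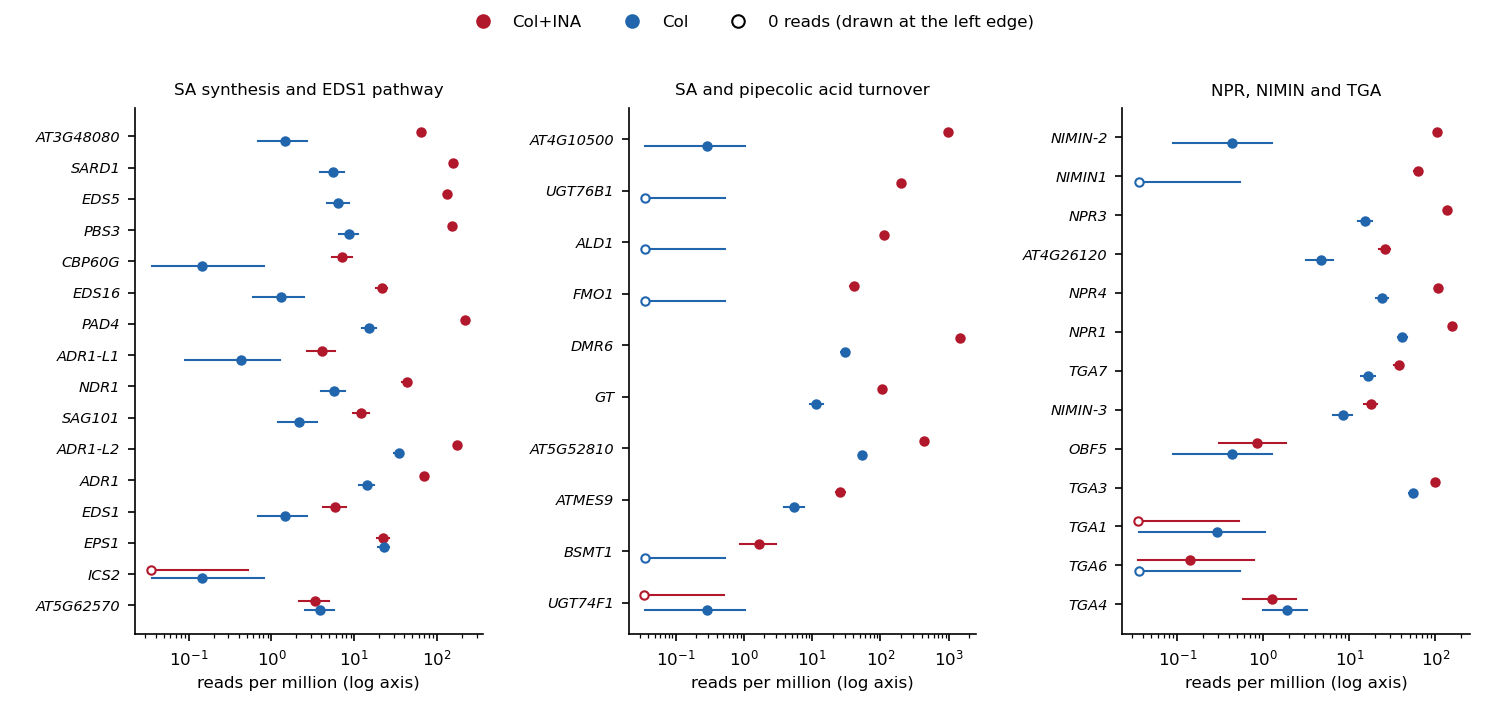
CPM in Col+INA (red) and Col (blue) on a log axis for the 39 genes of 3 lists, sorted by ratio, with exact 95% Poisson intervals that cover counting error only; open points had 0 reads and stand at the left edge. Red lies to the right of blue for most genes, the points of *EPS1* coincide at 158 and 157 reads, and *TGA1*, *TGA4*, *TGA6* and *ICS2* have too few reads to be told apart.

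Of 13 genes of the *NPR*, *NIMIN* and *TGA* families 8 were higher and 0 lower, with a median log2 ratio of 1.19. *NPR1*, the coactivator, had 1115 reads in Col+INA and 286 in Col. *NPR3* and *NPR4*, known as corepressors, had 988 and 764 reads in Col+INA, against 106 and 165 in Col. The ratio was 9.03 for *NPR3* (95% interval 7.37 to 11.1) and 4.48 for *NPR4* (3.78 to 5.34), so that the *NPR* genes of opposite roles were higher together. Of the *NIMIN* proteins, which bind NPR1 and restrain it, *NIMIN-2* had 750 reads in Col+INA and 3 in Col, and *NIMIN1* had 445 and 0. *NIMIN-3* was higher by a smaller factor, at 126 and 58, and the *NPR1* relative *AT4G26120* had 183 and 32. Of the *TGA* factors only *TGA7* was higher, at 268 reads in Col+INA and 114 in Col. *TGA3* had 713 and 375 reads and was not called, and *OBF5* (*TGA5*) had 6 and 3.

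The promoters of 5 genes named here are shown, because the elements bound by TGA, WRKY and other factors are short runs of letters that can be read in them. Each runs 5′ to 3′ from 250 bases before to 50 bases after the start of the gene model in TAIR10 coordinates, read from the nuclear chromosomes of the RefSeq copy of TAIR10.1. Capitals mark TGACG, the core bound by TGA factors, and TTGAC, the core of the W-box bound by WRKY factors, on either strand. *NIMIN-2* is at chr3:9470901-9471200 (minus strand), *AT4G10500* at chr4:6490767-6491066 (plus strand) and the receptor-like protein gene *AtRLP41* at chr3:9112699-9112998 (minus strand).
NIMIN-2: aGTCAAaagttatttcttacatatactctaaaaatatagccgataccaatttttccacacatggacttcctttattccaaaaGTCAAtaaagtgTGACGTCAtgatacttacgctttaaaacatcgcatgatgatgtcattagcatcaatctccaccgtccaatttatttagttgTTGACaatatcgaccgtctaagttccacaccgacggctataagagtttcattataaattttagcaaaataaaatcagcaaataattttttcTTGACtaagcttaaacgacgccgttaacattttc
AT4G10500: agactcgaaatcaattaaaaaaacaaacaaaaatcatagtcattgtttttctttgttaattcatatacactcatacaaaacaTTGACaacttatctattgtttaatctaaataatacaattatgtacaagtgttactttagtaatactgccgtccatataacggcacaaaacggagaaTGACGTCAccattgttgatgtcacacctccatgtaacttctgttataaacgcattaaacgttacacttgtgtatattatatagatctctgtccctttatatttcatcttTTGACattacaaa
AtRLP41: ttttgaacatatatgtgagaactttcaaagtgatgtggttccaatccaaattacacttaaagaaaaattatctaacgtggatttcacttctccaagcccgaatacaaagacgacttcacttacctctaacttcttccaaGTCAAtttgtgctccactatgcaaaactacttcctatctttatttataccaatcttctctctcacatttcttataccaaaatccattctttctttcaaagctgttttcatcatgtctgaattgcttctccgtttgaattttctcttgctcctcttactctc
In *NIMIN-2* and *AT4G10500* a pair of TGACG cores on opposite strands overlaps to give TGACGTCA, at base −156 and base −72 from the start, and both windows also hold TTGAC. The window of *AtRLP41* holds a single TTGAC, at −111 on the other strand, and no TGACG.

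These letters are common, and their shares differed between the groups. TTGAC on either strand was present in 63.5% of the 2935 windows of genes called higher and in 40.2% of the 1780 of genes called lower, against 49.3% of all 21005 windows. Among the 647 genes that were at least 8-fold higher the share was 70.3%. Of the 30 receptor-like protein genes called higher 27 held it, and of all 52 measured 39 did. Of the 24 *WRKY* genes called higher 18 held it, and of all 59 measured 38 did. TGACG was present in 31.7% of the windows of genes called higher, in 21.1% of those called lower and in 26.2% of all. Among genes called higher its share differed between lists. It was present in 2 of 13 windows of the SA synthesis and EDS1 list and in 2 of 8 of the *NPR* list. Receptor-like proteins held it in 6 of 30 windows, *WRKY* genes in 6 of 24 and proteasome subunits in 2 of 23. It was more frequent in SA and pipecolic acid turnover, at 4 of 9, and in cytosolic ribosomal proteins, at 3 of 8. In the endoplasmic reticulum genes counted below it was present in 19 of 38. The letters TTGACG count for both and were present in 9.4% of all windows. A match is not shown to be a binding site, and windows of 300 bases miss elements that lie farther away.

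WRKY factors, a plant family with many members that act in defense, were higher or not called. Of 59 measured 24 were higher and 0 lower, with a median log2 ratio of 1.37. *WRKY70*, which acts downstream of NPR1, had 7709 reads in Col+INA and 287 in Col. Its paralog *WRKY54* had 750 and 5 reads. *WRKY38* and *WRKY51* had 435 and 330 reads in Col+INA and 0 reads each in Col. *WRKY53*, which is also known from leaf senescence, had 1058 reads in Col+INA and 43 in Col, and *WRKY33*, a regulator of camalexin synthesis, had 1501 and 198. NAC factors followed with 23 of 71 higher and 2 lower. Among them *anac036* had 1646 reads in Col+INA and 53 in Col, and *anac042* had 180 and 3.

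Receptors at the cell surface fell into families that behaved differently. Of 52 receptor-like proteins, which lack a kinase domain, 30 were higher and 6 lower, with a median log2 ratio of 1.82. *AtRLP23*, the receptor of an NLP peptide, had 7350 reads in Col+INA and 59 in Col, *AtRLP34* had 5221 and 147, and *AtRLP41* had 5038 and 29. *SOBIR1*, the kinase that such proteins need as a partner, had 9129 reads in Col+INA and 471 in Col. Of 36 cysteine-rich receptor-like kinases 20 were higher and 3 lower, with a median log2 ratio of 1.81. *CRK7* had 1086 reads in Col+INA and 6 in Col, and *CRK37* had 837 and 7, while *CRK42* was lower, at 189 and 512. Among wall-associated kinases 5 of 14 were higher and 0 lower. *WAK1* had 8247 reads in Col+INA and 433 in Col and *WAK3* had 643 and 8.

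The largest receptor family went both ways. Of 147 leucine-rich repeat receptor kinases 24 were higher and 39 lower, with a median log2 ratio of −0.58, and after allowing for length 26 were higher and 28 lower. At a stricter log2 limit of 1.5 the balance turned, with 22 higher and 20 lower, since many that were lower were only a little below the limit of −1. *AT1G56120* had 2238 reads in Col+INA and 28 in Col, and *AT1G35710* had 6576 and 604. At the other end *AT2G02780* had 16 reads in Col+INA and 165 in Col, and *AT3G57830* had 23 and 184. Of 58 lectin receptor kinases 17 were higher and 5 lower, among them *RLK* (*AT2G37710*) with 7267 reads in Col+INA and 935 in Col.

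NLR proteins are receptors inside the cell. Of 103 measured with a TIR domain 27 were higher and 5 lower, with a median log2 ratio of 0.33. The short TIR protein *AT1G57630* had 561 reads in Col+INA and 2 in Col, and *AT3G04210* had 3233 and 401. *SNC1*, a TIR-type receptor whose gain-of-function allele is known to turn on SA signaling, had 1610 and 1730 reads and was not called. *AT4G19530* was lower, at 308 reads in Col+INA and 1195 in Col. Of 33 other NLR genes 6 were higher and 4 lower, and *RPP13*, a receptor for downy mildew, was lower at 472 and 935.

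Signaling proteins between receptor and nucleus were called higher more often than lower, though most were not called. Of 92 calmodulin-like proteins and calcium-dependent kinases 38 were higher and 2 lower, and they took 0.845% of the reads in Col+INA and 0.278% in Col. The EF-hand protein *AT2G41090* alone had 23309 reads in Col+INA and 4425 in Col, and *AT3G47480* had 1730 and 15. Of 31 MAP kinase cascade genes 12 were higher and 2 lower. The kinases *ATMPK3*, *ATMPK4* and *ATMPK6*, all known in immunity, had 2054, 1665 and 1312 reads in Col+INA, against 727, 496 and 621 in Col. *MAPKKK10* (*AT4G08470*) had 898 and 95. Of 18 plant U-box ligases 6 were higher and 0 lower, with *ATPUB54* at 351 reads in Col+INA and 8 in Col.

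Enzymes that conjugate or oxidize small molecules were higher in part, and exporters went both ways. Of 50 glutathione S-transferases 18 were higher and 2 lower, and they took 1.08% of the reads in Col+INA and 0.311% in Col. *ATGSTF2* had 36237 reads in Col+INA and 659 in Col. *ATGSTF6* and *ATGSTF7*, which are close copies, had 518 and 3957 reads in Col+INA, against 3 and 39 in Col. Of 110 glutaredoxins and thioredoxins 27 were higher and 2 lower, but only 15 were higher after allowing for length. *GRX480*, which binds TGA factors, had 240 reads in Col+INA and 0 in Col, and *ATTRX5*, a thioredoxin known to act on NPR1, had 1141 and 31. The exporters *PEN3* and *PDR12* had 7324 and 1401 reads in Col+INA, against 1519 and 19 in Col. They are from a list of 99 MATE and ABC transporters of which 18 were higher and 14 lower. These are 18.2% and 14.1%, both above the shares of all genes, and the median log2 ratio of the list was −0.05.

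Camalexin, the main indole phytoalexin of *Arabidopsis*, shares its first steps with indole glucosinolates. The enzymes of those shared steps, *CYP79B2* and *CYP79B3*, were not called, with 663 and 926 reads in Col+INA, against 654 and 806 in Col. The enzymes particular to camalexin were higher. *PAD3* had 512 reads in Col+INA and 0 in Col, *CYP71A12* had 60 and 0, and *CYP71A13* had 638 and 203. Upstream, 2 enzymes of tryptophan synthesis were higher, *TSA1* at 1047 reads in Col+INA and 370 in Col and *AT2G04400* at 1215 and 382. Of the 20 genes of aliphatic glucosinolates only *MAM-L* was higher, at 1172 and 320, and the factors *MYB29* and *MYB76* were lower, at 328 and 23 reads in Col+INA, against 642 and 53 in Col. Of the factors of indole glucosinolates *MYB51* was higher, at 224 reads in Col+INA and 41 in Col, and *ATMYB34* lower, at 213 and 515.

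The machinery that folds and sends out proteins was higher in most of the genes counted here. Of 63 measured genes of chaperones, translocation and N-glycosylation in the endoplasmic reticulum (ER) 38 were higher and 0 lower, with a median log2 ratio of 1.46, and they took 1.01% of the reads in Col+INA and 0.193% in Col. The calnexin *CNX1* had 17140 reads in Col+INA and 1184 in Col. The calreticulin *CRT1b* had 11399 and 993, and *CRT3*, a calreticulin with its own clients, had 3 and 0. The HSP70 proteins of the ER, *BIP1*, *BIP* and *BIP3*, had 6597, 899 and 13 reads in Col+INA, against 694, 72 and 0 in Col, and as near-identical copies they may share reads. The protein disulfide isomerases *ATPDIL1-1*, *ATPDIL1-2* and *ATPDIL2-2* had 1763, 5078 and 913 reads in Col+INA, against 54, 143 and 32 in Col. Both catalytic subunits of oligosaccharyltransferase were higher, *STT3A* at 1599 and 292 reads and *STT3B* at 601 and 147.

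The coats of the vesicles that leave the ER and the Golgi were counted apart. Of 28 measured 10 were higher and 0 lower, with a median log2 ratio of 0.68. The cargo receptor *p24delta5* had 1243 reads in Col+INA and 249 in Col, and *AT1G14010* of the same family had 707 and 91. With an assumed coefficient of variation of 0.4, 0 vesicle coat genes and 10 ER genes were called higher. Of 45 proteasome subunits 23 were higher and 0 lower, with a median log2 ratio of 1.05, and 19 were higher after allowing for length. With an assumed coefficient of variation of 0.2, 11 subunits were called higher, and with 0.4, 0 were. The log2 ratios of all 45 ran from −1.46 to 2.89. *RPT3* had 2053 reads in Col+INA and 566 in Col, and *RPT2a* had 1586 and 431. *PAF1* had 1350 and 339 reads, and *PBG1* had 1207 and 290. Cytosolic ribosomal proteins had 8 of 78 higher and 0 lower, and 4 higher after allowing for length. The 8 are 10.3%, under the 13.9% of all genes.

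The promoter of *CNX1*, at chr5:24829742-24830041 (minus strand), is shown in the same window, with capitals for CCACGTCA, an element known from the unfolded protein response, and for TGACG, which lies within it on the other strand. The match is at base −91 from the start.
CNX1: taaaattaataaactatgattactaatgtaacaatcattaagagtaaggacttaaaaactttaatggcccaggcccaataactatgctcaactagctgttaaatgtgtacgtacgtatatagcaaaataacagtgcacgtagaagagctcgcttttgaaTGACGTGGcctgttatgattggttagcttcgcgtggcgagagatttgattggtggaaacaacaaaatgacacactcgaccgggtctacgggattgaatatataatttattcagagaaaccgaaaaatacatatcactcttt
CCACGTCA was present in 5 of the 38 windows of ER genes called higher, against 2.0% of all windows and 6 of the 67 of the photosystem list. The G-box CACGTG was present in 13 of these 38, or 34.2%, against 9.0% of all windows. For proteasome subunits the letters TGGGCC, a site II element, were present in 27 of 45 windows, against 17.7% of all, and 15 of the 23 called higher held them. They are not particular to this list: 50 of the 78 windows of cytosolic ribosomal proteins held them too. Over all genes called higher their share was 16.6%.

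**Figure D4:**
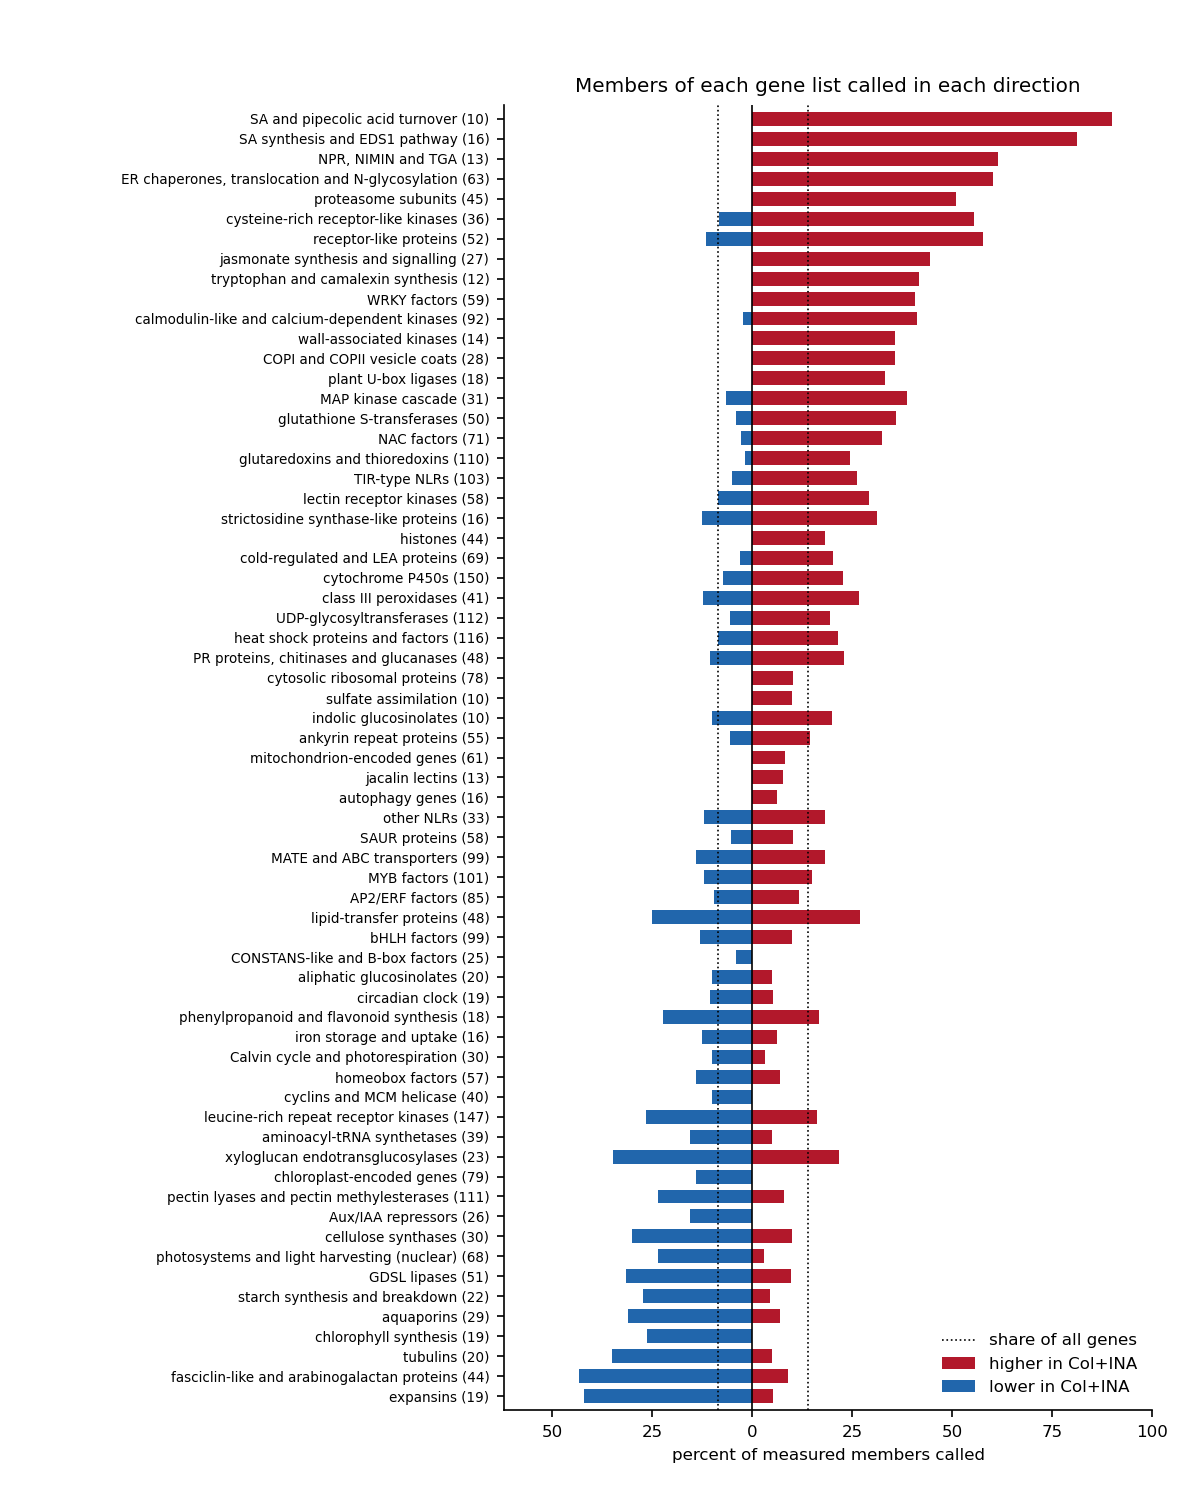
Percent of the measured members of each list called higher in Col+INA (red, to the right) and lower (blue, to the left), with the number of members in parentheses and dotted lines at the shares of all genes, 13.9% and 8.47%. Lists of SA metabolism reach 90.0% higher with none lower at the top, and expansins and arabinogalactan proteins stand at the bottom.

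Jasmonate, which is often described as acting against SA, has its own synthesis and signaling genes. Of 27 genes of jasmonate synthesis and signaling 12 were higher and 0 lower, with a median log2 ratio of 1.11. *LOX2*, a lipoxygenase at the start of the pathway, had 9144 reads in Col+INA and 2618 in Col. The cyclases *AOC2* and *AOC3* had 368 and 111 reads in Col+INA, against 109 and 12 in Col. *PDF1.2*, a defensin used as a marker of jasmonate and ethylene, had 38 reads in Col+INA and 2 in Col, and *JAZ1*, a repressor, had 14 and 1. *COI1*, the receptor, was not called, at 840 and 491. Of 85 AP2/ERF factors 10 were higher and 8 lower, a balance that turned to 7 and 9 with edgeR's TMM scaling. The 10 and 8 are 11.8% and 9.4%, near the shares of all genes. *ATERF-1* and *ATERF2* had 162 and 168 reads in Col+INA, against 12 and 11 in Col.

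Of 26 genes of the Aux/IAA list, which holds auxin response factors too, 0 were higher and 4 lower. *SHY2* (*IAA3*) had 223 reads in Col+INA and 521 in Col, and *MP*, an auxin response factor, had 33 and 100. Of 58 SAUR genes, small auxin-responsive proteins tied to cell expansion, 6 were higher and 3 lower. These are 10.3% and 5.2%, both under the shares of all genes. *AT1G16510* stood out, with 496 reads in Col+INA and 7 in Col.

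Genes of photosynthesis took a smaller share of the reads in Col+INA than in Col. Of 68 nuclear genes of the photosystems and their antennae 2 were higher and 16 lower, with a median log2 ratio of −0.72, and 0 were higher and 39 lower after allowing for length. They took 8.76% of the reads in Col+INA and 16.9% in Col. In bulk leaves, fewer cells of a type and less RNA per cell cannot be told apart. *CAB1*, an antenna protein of photosystem II and the most abundant gene of Col, had 51396 reads in Col+INA and 187650 in Col. *LHCB2.4* had the strongest difference of this group, at 1452 and 12818 reads. *CAB2* and *CAB3*, near-identical to *CAB1* so that reads between them may be misassigned, had 17165 and 6984 reads in Col+INA, against 44599 and 20641 in Col. *PSBR* was not called, at 53415 and 62097. The exceptions were *ELIP1* and *ELIP2*, antenna-like proteins made in light stress, which were higher at 3258 and 1258 reads in Col+INA, against 1281 and 579 in Col. With an assumed coefficient of variation of 0.4 the edgeR exact test called 0 genes of this list.

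The window of *CAB1* at chr1:10477755-10478054 (plus strand) is shown in the same way, with capitals for GATAAG, the I-box of light-regulated genes, at base −60 from the start.
CAB1: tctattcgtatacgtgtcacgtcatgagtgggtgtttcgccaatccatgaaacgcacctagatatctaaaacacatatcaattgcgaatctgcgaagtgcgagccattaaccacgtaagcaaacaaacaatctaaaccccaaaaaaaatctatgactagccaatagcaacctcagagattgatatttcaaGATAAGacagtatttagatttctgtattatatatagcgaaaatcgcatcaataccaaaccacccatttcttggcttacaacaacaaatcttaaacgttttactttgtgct
GATAAG was present in 53.7% of 67 windows of the photosystem list, against 15.6% of all windows, and CACGTG in 41.8%, against 9.0% of all. TTGAC was present in 35.8% of the photosystem windows, against 49.3% of all, while TGACG was present in 37.3%, against 26.2% of all. The window of *CAB1* holds TGACG too, on the other strand and not marked.

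Genes of chlorophyll synthesis and of the plastid genome were called in 1 direction only. Of 19 genes of chlorophyll synthesis 0 were higher and 5 lower, or 8 lower after allowing for length. *PCB2*, a vinyl reductase, had 181 reads in Col+INA and 914 in Col, and *GUN5*, the large subunit of magnesium chelatase, had 671 and 1798. *HEMA1*, the first committed enzyme, had 5972 and 11368 and narrowly missed the ratio limit. Of 79 genes encoded in the chloroplast 0 were higher and 11 lower, and they took 2.02% of the reads in Col+INA and 2.86% in Col. *RPL22* had 678 reads in Col+INA and 3401 in Col, and *ATPB*, the most abundant of this group, had 46345 and 60490. Of 30 genes of the Calvin cycle and photorespiration 1 was higher and 3 lower, or 0 and 5 after allowing for length. *RBCS2B*, a small subunit of Rubisco, had 17528 reads in Col+INA and 44972 in Col, while its near-identical copy *RBCS1B* had 11454 and 16815 and was not called.

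**Figure D5:**
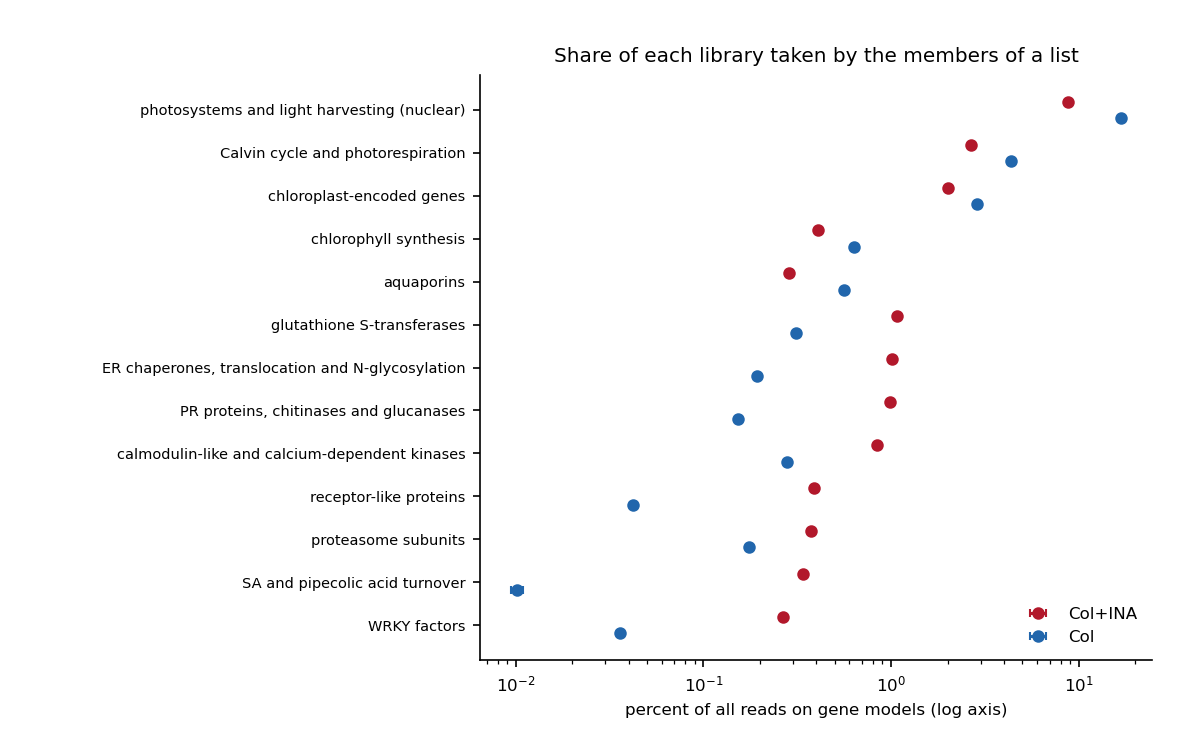
Percent of all reads on gene models (log axis) taken by 13 lists in Col+INA (red) and Col (blue), with exact 95% binomial intervals, most of them smaller than the points. Photosystem genes stand at 8.76% in Col+INA and 16.9% in Col, and ER chaperones at 1.01% and 0.193%.

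Of 22 starch genes 1 was higher and 6 lower, with the amylase *CT-BMY* at 6233 reads in Col+INA and 20597 in Col. *GBSS1*, the starch synthase of amylose, had 7441 and 18782. Among 16 iron genes *ATFER1*, the main leaf ferritin, was higher at 7032 reads in Col+INA and 799 in Col. *EMB2454*, the iron-regulated ubiquitin ligase also called *BTS*, was lower at 856 and 4578, and the bHLH factor *PYE* had 3 and 41. *ATGSR1*, a cytosolic glutamine synthetase, had 4371 reads in Col+INA and 145 in Col, while the plastid enzyme *GS2* had 630 and 924 and was not called.

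Among the lowest 15 ratios, *GLP3*, a germin-like protein of the cell wall, had 9 reads in Col+INA and 546 in Col, or 62.6-fold lower. *WSD1*, a wax ester synthase, had 23 and 898 reads. *ELP*, an extensin-like protein, had 146 reads in Col+INA and 3956 in Col. The pectin methylesterase inhibitor-type protein *AT1G23205* had 44 and 1175, the pectin lyase-like *AT1G60590* had 143 and 2458, and *XTR8*, an enzyme that cuts and rejoins xyloglucan, had 159 and 2444. Of the lowest 15 genes *AT5G15780* and *AT5G13140* carry an Ole e 1 and extensin domain, with 99 and 29 reads in Col+INA, against 2005 and 450 in Col. *ProT3*, a proline transporter, had 19 reads in Col+INA and 323 in Col, and *XIG*, a myosin, had 18 and 255.

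Families that loosen or build the wall had more members lower than higher, and many members were not called. Of 19 expansins, which loosen the wall in growing cells, 1 was higher and 8 lower, with a median log2 ratio of −1.24. *ATEXPA11* had 163 reads in Col+INA and 587 in Col, and the exception *ATEXPA8* had 394 and 184. Of 44 fasciclin-like and arabinogalactan proteins 4 were higher and 19 lower. *FLA8* and *FLA2* had 517 and 247 reads in Col+INA, against 2649 and 1515 in Col, but *AGP5* was higher, at 1861 and 21. Of 23 xyloglucan endotransglucosylases 5 were higher and 8 lower, with *XTH6* at 596 reads in Col+INA and 2954 in Col and *XTH10* at 198 and 7. Of 30 cellulose synthases and relatives 3 were higher and 9 lower, among them *CESA5* at 1182 and 4083. Of 111 pectin lyases and methylesterase-type proteins 9 were higher and 26 lower. With an assumed coefficient of variation of 0.4, 1 fasciclin-like or arabinogalactan protein was called higher and 0 lower.

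Of 29 aquaporins 2 were higher and 9 lower, and they took 0.287% of the reads in Col+INA and 0.562% in Col. The tonoplast channels *TIP2* (*AT3G26520*) and *GAMMA-TIP* had 5511 and 3339 reads in Col+INA, against 12940 and 7312 in Col. Of 51 GDSL lipases 5 were higher and 16 lower, with *AT3G16370* at 1406 reads in Col+INA and 6302 in Col. Lipid-transfer proteins split, with 13 of 48 higher and 12 lower. *LP1* had 1976 reads in Col+INA and 6732 in Col, while *AT5G55450* had 2495 and 21. *CYP86A2*, an enzyme of cutin synthesis, had 1139 and 4312 reads, and *CER5*, an exporter of wax, had 1579 and 3276. Of 20 tubulins and related genes 1 was higher and 7 lower. Among genes that the deposited table assigns to microtubule-based process, 0 of 72 were higher and 28 lower.

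Of 40 cyclins and MCM helicase genes 0 were higher and 4 lower. Of 44 histone genes 8 were higher and 0 lower, or 3 higher after allowing for length. The histone gene *AT1G09200* had 580 reads in Col+INA and 184 in Col. Of 3 guard cell markers *FMA*, a factor of guard cell identity, was lower, at 157 reads in Col+INA and 397 in Col, and the potassium channel *KAT1* had 298 and 568 and was not called. Of 3 vascular markers 0 were higher and 1 was lower, with log2 ratios from −1.08 to 0.64. Among them *SUC2*, a phloem sucrose transporter, had 2619 reads in Col+INA and 1626 in Col and was not called.

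Phenylpropanoid genes are a second possible route to SA and make flavonoids and lignin. Of 18 measured 3 were higher and 4 lower. *PAL1*, the entry enzyme, had 3286 reads in Col+INA and 7609 in Col. *PAL2* had 2883 and 5551 and was not called, as it narrowly missed the ratio limit. *CHS*, the entry enzyme of flavonoids, had 2709 and 5702. In contrast *DFR*, an enzyme of anthocyanins, had 19 reads in Col+INA and 0 in Col, and its regulator *PAP1* had 103 and 46.

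Neighboring genes were at times called together. Along the chromosomes there were 22 runs of at least 4 adjacent measured genes that were all higher in Col+INA and 4 runs that were all lower. Of the 22 runs, 15 had only 4 genes. Over all genes 13.9% were higher and 8.47% lower, and whether these shares alone would give as many runs was not tested. The longest spanned 8 genes on chromosome 2, from *AT2G44360* to *AT2G44420*, over 12.2 kb, and 4 of its members encode C1-domain proteins. Within it *AT2G44380* had 354 reads in Col+INA and 0 in Col. A run of 6 on chromosome 4 was the cluster from *CRK6* to *CRK11*, over 22.5 kb, in which *EP1* (*AT4G23170*) had 2539 reads in Col+INA and 161 in Col and *CRK8* had 48 and 0. On chromosome 2 a run of 6, from *ATDTX1* to the pseudogene *AT2G04110*, held 5 MATE exporters, with *AT2G04070* at 138 reads in Col+INA and 6 in Col. A run of 5 on chromosome 5 held heavy-metal-binding proteins, with *AT5G52750* at 1083 and 33 and *AT5G52760* at 870 and 11. Members of such clusters are often similar in sequence, and strand was not stated for the counting, so reads between copies or from overlapping genes may have been assigned to a neighbor.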

How the data were processed

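Leaf RNA of water-treated and INA-treated Col was measured by RNA sequencing, 1 library a side. The authors aligned reads with SOAPaligner/soap2, allowing 2 mismatches, and deposited a read count and an RPKM (reads scaled by gene length and library size) for 24178 gene models. The submitters' processing notes name TAIR10. Deposited RPKM is listed as 0.001 where the count is 0, and is otherwise the count divided by gene length and library sum. Columns of the authors' own comparison hold ratios and probabilities and were not used.

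Counts were compared with a two-sided exact binomial test (SciPy 1.17.1) against the library sums, with Benjamini-Hochberg adjustment over all gene models. One gene model was kept per gene, the one with most reads (99.8% of reads). Counts under 3 were set to 3 in ratios. Ratios and shares have 95% Clopper-Pearson intervals. The test was checked on simulated counts that carried counting error only, with no variation between plants. Gene lists (69, and 7 of markers) came from gene identifiers or from the wording of the table's descriptions; faulty wording patterns were corrected once the table was read. Lists and members were chosen with earlier results of these data known. Named genes were the 15 highest and 15 lowest ratios with at least 100 reads, the 5 most abundant of each library, in each list the 3 highest, 3 lowest and 3 most abundant, and all members of lists given by identifier; the genes named inside chromosome runs were chosen after their values were seen. Alternatives used edgeR 4.0.16 and DESeq2 1.42.0 for scaling and for assumed variation. Promoters were read from TAIR10.1, where 99.96% of gene spans overlapped the RefSeq gene of the same name on the same strand; 20977 genes matched a RefSeq locus.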

Additional observations from a re-analysis of the deposited data

How the results depend on the processing

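With 1 library a side no spread between samples could be estimated, and no replicate could be left out. No paired analysis was possible because each condition has a single library. Against 2940 genes higher and 1791 lower, a log2 limit of 1.5 gave 1912 and 1018, and the edgeR exact test gave 1610 and 715 with an assumed coefficient of variation of 0.2 and 403 and 29 with 0.4. The cause of these drops is the construction of each alternative. Under the other alternatives both counts stayed within 1.5 times: 2424 to 3554 higher and 1388 to 2429 lower, over an FDR of at most 0.2, TMM, DESeq2 and reference-gene scaling, a filter of 10 reads, log2(RPKM + 1), summed or any gene models, and the length-adjusted ratio, which was chosen after seeing the data. TMM scaling shifted the median log2 ratio of all genes by −0.14 and made 53.1% of calls higher, against 62.1%. No named gene of the 676 changed sign under any alternative while it was called, and the balance of calls turned for AP2/ERF factors under TMM (7 higher, 9 lower) and DESeq2 scaling (8 and 9), for these (8 and 11), MYB factors (12 and 13) and lipid-transfer proteins (13 and 14) after the length adjustment, and, at a coefficient of variation of 0.4, for leucine-rich repeat receptor kinases (6 and 0), xyloglucan endotransglucosylases (2 and 1), cellulose synthases (1 and 0) and fasciclin-like and arabinogalactan proteins (1 and 0). At 0.2 it turned for aquaporins (1 and 0) and already for leucine-rich repeat receptor kinases (21 and 17). These kinases also turned at a log2 limit of 1.5 (22 and 20). At 0.2 or at that limit the balance turned too for bHLH factors, phenylpropanoid, aliphatic glucosinolate, clock and aminoacyl-tRNA synthetase genes. Reads limit the calls: of 6820 genes with under 20 reads, 1.6% were higher and 1.2% lower.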

Other observations

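Other groups held single genes with large differences. Of 150 cytochrome P450s 34 were higher and 11 lower, with a median log2 ratio of 0.01. *CYP81D8* had 507 reads in Col+INA and 11 in Col, and *CYP710A1*, a sterol desaturase, had 128 and 0. *CYP86A8*, which makes cutin and wax precursors like *CYP86A2*, was lower, at 69 reads in Col+INA and 288 in Col. Of 41 class III peroxidases 11 were higher and 5 lower. *ATPERX34*, a cell wall peroxidase known from the oxidative burst, had 3752 reads in Col+INA and 330 in Col. Of 116 heat shock proteins and factors, which include the DnaJ and HSP70 proteins of the ER, 25 were higher and 10 lower. The factor *AT-HSFA8* had 476 reads in Col+INA and 20 in Col, and *ATERDJ3B*, a DnaJ partner in the ER, had 4480 and 272.

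Of 9 senescence genes 4 were higher and 0 lower. *NAP*, a NAC factor of leaf aging, had 1296 reads in Col+INA and 469 in Col, and *ACD1*, an enzyme of chlorophyll breakdown, had 2301 and 891. *SAG13* had 27 reads and 0. Of 19 clock genes 1 was higher and 2 lower, or 1 and 1 after allowing for length. The 2 lower are 10.5%, near the 8.47% of all genes. *TOC1*, expressed at dusk, had 234 reads in Col+INA and 53 in Col, and *CCA1*, expressed at dawn, had 309 and 622. The time of day of each harvest is not given in the sources used here. Of 57 homeobox factors 4 were higher and 8 lower. *ATML1*, a factor of the epidermis, had 30 reads in Col+INA and 114 in Col, and a link to the genes of wax and cutin given above was not tested. Among bHLH factors *SCRM2*, a partner of *FMA* in the stomatal lineage, had 108 and 282 reads.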
